A study of Homo sapiens with 12 samples.

Results

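The genes described here are 9 transcriptional targets of the tumour suppressor p53 that respond to DNA damage: MDM2, GADD45A, SESN1, BTG2, RRM2B, XPC, TP53INP1, FAS and TNFRSF10B. They were chosen by name, and all probe sets that carry one of these symbols alone were taken, with the brightest one standing for the gene. Of the 9 genes, 8 had such a probe set among 19775 genes with a symbol. BTG2 could not be matched to a probe set, and its expression was not analysed here. The 8 genes had 26 probe sets, of which 15 read 4 or more (log2) on at least 3 arrays. The other 11 stayed at or below 3.54, near the array medians of 2.85 to 2.94.

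The samples were HK-2 cells, a human kidney line from the proximal tubule epithelium that was immortalized with papillomavirus E6 and E7 genes, treated with Fk or with its control vehicle for 12 h or 48 h. What Fk stands for is not spelled out in the labels, and its dose is not analysed here. There were 4 groups with 3 Affymetrix arrays each, 12 in all, and the labels name them biological replicates. All groups shared this 1 line and a medium with EGF, hydrocortisone, insulin and transferrin and a glucose level of 5 mM. For all of them 700000 cells went into each well 24 h ahead of treatment, which began at about 90% confluency. The E6 protein is known to direct p53 to degradation, which limits this line as a model of the p53 response. All 6 epithelial markers, among them CDH1, EPCAM and KRT18, reached the level of 4 on at least 3 arrays. Of 9 proximal tubule markers with a probe set, only PAX8 did, and LRP2, CUBN and AQP1 did not.

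p53 is a transcription factor that is held at a low level by the ubiquitin ligase MDM2 and accumulates after DNA damage. It then switches on genes that halt the cell cycle, repair DNA or kill the cell, and among them MDM2 itself, which closes a feedback loop. Several of its targets also answer to other signals: GADD45A, TNFRSF10B and SESN2 are known to be induced through ATF4 and CHOP (DDIT3) in the integrated stress response. In the kidney, proximal tubule cells are a main site of toxic and ischaemic injury, after which p53 targets are known to be induced. On bulk arrays fewer cells that express a gene and less RNA per cell cannot be told apart.

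Stretches of 3 members, MDM2, FAS and SESN1, in RefSeq windows of 250 bases before a transcript start (GRCh38.p14) resemble the p53 response element. These are all the members with such a stretch in the windows at hand. The search used the p53 response element, a pair of 10-base repeats, with a spacer of at most 1 base, the central C and G of each repeat intact and at most 3 other mismatches. The element reads alike on both strands. Such a match was found in 693 of 35116 windows of this length, or 1.97%. The capitals mark the match.
MDM2, chr12:68808923-68808942, plus strand, 2 mismatches: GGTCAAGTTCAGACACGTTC
FAS, chr10:88991309-88991328, plus strand, 2 mismatches: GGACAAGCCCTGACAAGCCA
SESN1, chr6:109009018-109009037, minus strand, 3 mismatches: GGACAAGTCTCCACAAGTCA
The MDM2 match starts 94 bases before the transcript start at chr12:68809017, an internal promoter of the gene that is known for its response to p53. The 250 bases before that start, at chr12:68808767-68809016, read as follows with the match in capitals.
MDM2 internal promoter: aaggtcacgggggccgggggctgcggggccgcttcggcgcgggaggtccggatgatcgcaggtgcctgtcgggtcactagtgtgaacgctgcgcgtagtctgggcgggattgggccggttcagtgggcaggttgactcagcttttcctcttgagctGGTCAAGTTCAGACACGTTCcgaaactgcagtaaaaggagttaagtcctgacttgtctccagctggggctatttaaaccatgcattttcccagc
Windows were at hand for 5 of the 9 genes and for CDKN1A, 13 in all, and 4 of them held a match, 2 of these being overlapping MDM2 windows with the same match. The windows of XPC, BTG2 and CDKN1A held none, which says only that these letters are not in them.

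The arrays differed beyond their groups. The array Fk_12h replicate 3 stood apart: on it 1660 genes lay more than 1 log2 unit from the mean of the other arrays of its group, against 31 to 652 on the other 11, and a 28S ribosomal RNA control probe set read 14.38, against 8.50 to 10.29. At 48 h, replicates 3 of both groups lay nearest to the 12 h arrays on the leading principal component (55.4% of the variance), and replicates 1 farthest. Genes were tested with limma over the 10784 genes that reached the level of 4, and a gene passed with a Benjamini-Hochberg adjusted p under 0.05.

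The first question was what Fk did to these genes at each time. At 12 h, 0 of the 8 members passed and 0 had an unadjusted p under 0.05, where 724 of 10784 genes, or 6.71%, had one and 0, or 0.0%, passed. At 48 h, 0 members passed and 0 had an unadjusted p under 0.05, where 559 genes, or 5.18%, had one and 0, or 0.0%, passed. The Fk and control arrays overlapped for every member at both times, while they did not overlap for 16.4% of all genes at 12 h (9.91% higher and 6.49% lower with Fk) and 10.2% at 48 h (6.14% higher and 4.02% lower). The members' median log2 fold change was -0.074 at 12 h and +0.17 at 48 h, against +0.015 and +0.018 over all genes tested. The 12 h median includes Fk_12h replicate 3. Without that array the 12 h effects of MDM2, RRM2B, TP53INP1, FAS and TNFRSF10B turned positive, and those of GADD45A and XPC negative. The 95% intervals of the members' Fk effects reached from 0.477 to 1.51 log2 units to either side. They are not adjusted for the 10784 tests, so effects of this size and larger ones could go undetected.

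MDM2 (chr12:68808172-68850686), the ligase that restrains p53, read 8.93, 9.13 and 8.93 in control cultures at 12 h and 9.09, 9.28 and 8.26 with Fk. The first 2 Fk arrays lay among or above the controls and the last, replicate 3, below all of them. The log2 fold change was -0.12 with a 95% interval from -0.64 to 0.40, and it was +0.18 without Fk_12h replicate 3. At 48 h MDM2 read 9.74, 9.28 and 9.43 in control cultures and 9.86, 9.81 and 9.63 with Fk. All 3 Fk arrays lay above the same-numbered control array, by 0.12, 0.52 and 0.20, but the groups overlapped. At 48 h the Fk effect of +0.28 had a 95% interval of -0.24 to 0.80 (adjusted p = 1.0).

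SESN1 (chr6:108984309-109094846), a stress-induced inhibitor of mTORC1 signalling, had the largest Fk effect of the members at 48 h. It read 6.42, 5.76 and 5.85 in control cultures at 48 h and 7.09, 6.28 and 6.06 with Fk. Each Fk array lay above its same-numbered control array, by 0.67, 0.52 and 0.21, and the groups overlapped. The Fk effect of +0.47 had a 95% interval of -0.12 to 1.05 (adjusted p = 1.0), and it was +0.16 without Fk_48h replicate 1. At 12 h SESN1 read 6.44, 6.00 and 6.27 in control cultures and 6.27, 6.40 and 6.54 with Fk, an effect of +0.17 with an interval from -0.42 to 0.75.

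TP53INP1 (chr8:94925972-94949378), a nuclear protein that promotes autophagy and p53-dependent cell death, carried the largest single deviation of the set. It read 7.50, 7.38 and 7.50 in control cultures at 12 h and 7.27, 7.65 and 4.28 with Fk. Only Fk_12h replicate 3 was low, and the other 2 Fk arrays lay on either side of the controls. The effect of -1.06 had an interval from -2.56 to 0.45 (adjusted p = 0.791), and without that array it was +0.0032. At 48 h the gene read 7.17, 6.99 and 7.17 in control cultures and 7.49, 7.22 and 6.80 with Fk, an effect of +0.064. The interval at 48 h, from -1.44 to 1.57, was the widest of the set, since all 12 arrays enter 1 estimate of a gene's spread.

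GADD45A (chr1:67685201-67688334), which binds PCNA and the CDK1 complex and halts the cell cycle, read 10.09, 9.64 and 10.29 in control cultures at 12 h and 10.32, 9.57 and 11.29 with Fk. Here Fk_12h replicate 3 was the highest of the 12 h arrays, and the others overlapped. The Fk effect at 12 h was +0.39 with an interval from -0.41 to 1.18, and it was -0.061 without that array. The mean of 12 genes of the integrated stress response was also highest on that array, at 10.25, against 8.55 to 9.66 on the other 12 h arrays, and the part of this in the GADD45A value was not tested. At 48 h GADD45A read 11.92, 12.29 and 12.45 in control cultures and 12.33, 12.45 and 12.16 with Fk, an effect of +0.099 with an interval from -0.69 to 0.89.

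The death receptor genes had Fk effects of like size at 48 h. FAS (chr10:88964050-89017059), the receptor for FAS ligand, read 9.41, 9.65 and 10.31 in control cultures at 48 h and 9.77, 10.05 and 10.26 with Fk, an effect of +0.24 with an interval from -0.24 to 0.71. TNFRSF10B (chr8:23020133-23069031), a receptor for the death ligand TRAIL, read 12.20, 11.99 and 11.91 in control cultures and 12.46, 12.60 and 11.85 with Fk, an effect of +0.27 with an interval from -0.39 to 0.94. For both, Fk replicates 1 and 2 lay above their same-numbered controls and replicate 3 slightly below. At 12 h the effects were -0.040 for FAS and -0.19 for TNFRSF10B, and +0.023 and +0.19 without Fk_12h replicate 3.

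RRM2B (chr8:102204501-102238961), the p53-induced subunit of ribonucleotide reductase, which supplies nucleotides for repair, had Fk effects of -0.11 at 12 h and -0.053 at 48 h. XPC (chr3:14145147-14178601), which recognises damage in nucleotide excision repair, had 0.00071 at 12 h with an interval from -0.52 to 0.52, and -0.12 at 48 h. On Fk_48h replicate 3 both were low: XPC read 7.13 there, against 8.05 and 8.11 on the other Fk arrays and 7.79 to 8.06 in control cultures, and RRM2B read 7.90, against 8.72 and 8.52. Without this array the effects at 48 h were +0.20 for XPC and +0.19 for RRM2B.

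**Figure D1:**
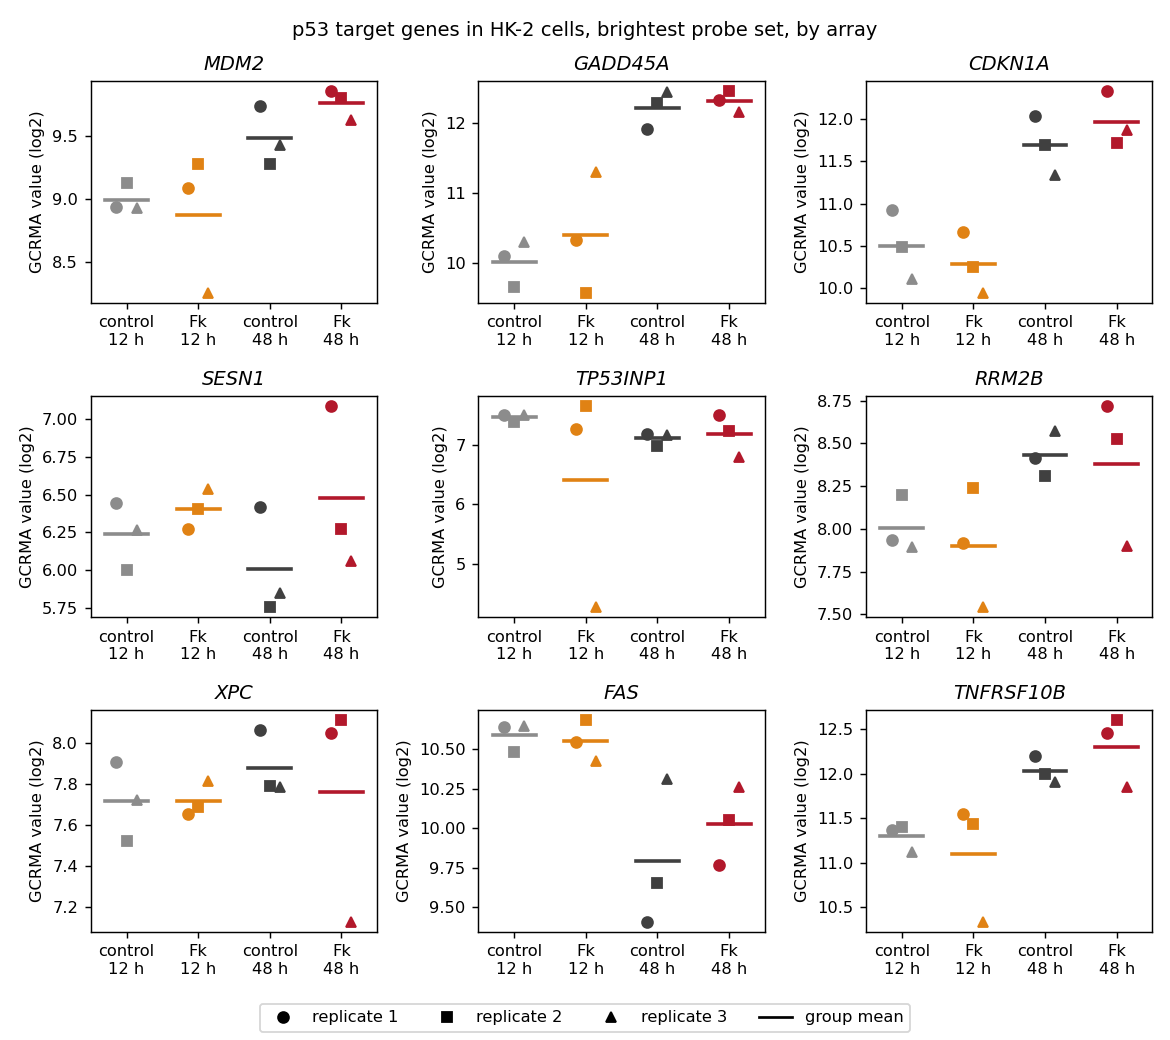
GCRMA value (log2 scale, vertical axis, 1 scale per gene) of the brightest probe set of the 8 members and of CDKN1A on each of the 12 arrays, by group; the symbol gives the replicate number and the line the mean of 3 arrays. Fk and control arrays overlap at each time for every gene shown, and TP53INP1 reads 4.28 on Fk_12h replicate 3. GADD45A, CDKN1A, TNFRSF10B and, narrowly, MDM2 lie higher on all 48 h arrays than on all 12 h arrays, and FAS lies lower.

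CDKN1A (chr6:36676463-36687332), the CDK inhibitor p21 and the best known p53 target, is not a member and is given for reference. It read 10.92, 10.48 and 10.11 in control cultures at 12 h and 10.67, 10.25 and 9.95 with Fk, and all 3 Fk arrays lay below the same-numbered control. At 48 h it read 12.03, 11.69 and 11.34 in control cultures and 12.33, 11.71 and 11.87 with Fk, each above the same-numbered control. The effects of -0.21 (interval from -0.82 to 0.39) and +0.28 (interval from -0.32 to 0.88) did not pass (adjusted p = 0.891 and 1.0). The difference between them, +0.50 with an interval from -0.35 to 1.35, did not pass either (adjusted p = 0.996).

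For the members, the test of the difference between the Fk effects at 48 h and 12 h gave 0 passing genes and 0 with an unadjusted p under 0.05, where 357 of all genes, or 3.31%, had one and 0, or 0.0%, passed. The mean of the Fk effects over both times also gave 0 members, with 0 at an unadjusted p under 0.05, where 856 of all genes, or 7.94%, had one and 1 gene, or 0.00927%, passed. The mean effects of the members ran from -0.50 for TP53INP1 to +0.32 for SESN1.

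The second question was how the genes differed between 12 h and 48 h, in control and in Fk cultures. Time under treatment and the age and density of the culture cannot be told apart here. In control cultures 2 of 8 members passed: GADD45A rose and FAS fell, where 21.5% of all genes passed, 10.6% as rises and 10.9% as falls. In Fk cultures 3 of 8 passed, all as rises: GADD45A, TNFRSF10B and MDM2, where 23.2% of all genes passed, 11.5% as rises and 11.7% as falls. GADD45A was the only member that passed in both, where 14.6% of all genes passed in both in the same direction. The members' median log2 fold change was +0.29 in control and +0.63 in Fk cultures, against +0.011 and +0.018 over all genes. The Fk median includes Fk_12h replicate 3. From their group means, TP53INP1 lay there at -2.12, TNFRSF10B at -0.77, MDM2 at -0.61, RRM2B at -0.36 and FAS at -0.12. GADD45A lay at +0.90, SESN1 at +0.13 and XPC at +0.09. The median was not computed without that array, so the 2 medians do not show a larger rise with Fk. At an unadjusted p under 0.05 there were 3 and 4 members, where 36.4% and 37.7% of all genes had one. The 12 h and 48 h arrays did not overlap for 6 members in control cultures and 4 in Fk cultures, where this held for 50.0% and 38.7% of all genes. In control cultures 4 of the 6 were higher and 2 lower at 48 h (25.1% and 24.9% of all genes), and in Fk cultures 3 were higher and 1 lower (19.0% and 19.7%). With shares this high for all genes, 6 and 4 of 8 members lie near the background.

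GADD45A had the largest change of the set. It rose from 10.01 ± 0.33 (SD, n = 3) to 12.22 ± 0.27 in control cultures, +2.21 on the log2 scale with an interval from 1.41 to 3.00, or 4.62-fold (adjusted p = 0.00327). In Fk cultures it rose from 10.40 ± 0.86 to 12.32 ± 0.15, by +1.92 with an interval from 1.13 to 2.71 (adjusted p = 0.00537), and by +2.37 without Fk_12h replicate 3. All 6 arrays at 48 h, from 11.92 to 12.45, lay above all 6 at 12 h, from 9.57 to 11.29. The gene passed under all 25 alternative settings in both comparisons.

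FAS went the other way. It read 10.64, 10.49 and 10.65 in control cultures at 12 h and 9.41, 9.65 and 10.31 at 48 h. All 48 h arrays were lower, and replicate 3 was the one nearest to the 12 h level. FAS fell by 0.80 on the log2 scale, with a 95% interval of -1.28 to -0.32 for the change (adjusted p = 0.0261). In Fk cultures FAS read 10.54, 10.68 and 10.43 at 12 h and 9.77, 10.05 and 10.26 at 48 h, and the difference of -0.53 did not pass (adjusted p = 0.101). It passed with array weights (-0.56, adjusted p = 0.00211) and without control_48h replicate 3 (adjusted p = 0.0307). With array weights 5812 of 10784 genes passed in this comparison. The 4 bright probe sets of FAS all passed in control cultures, with changes from -1.22 to -0.80. The call of FAS in control cultures ended without any of 5 control arrays, control_12h replicates 1 (-0.78), 2 (-0.86) and 3 (-0.77) and control_48h replicates 1 (-0.61) and 2 (-0.73), with adjusted p from 0.0583 to 0.0958, and with no filter on low values (0.0553).

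TNFRSF10B read 11.37, 11.41 and 11.12 in control cultures at 12 h and 12.20, 11.99 and 11.91 at 48 h. The groups did not overlap, yet the change of +0.74, with an interval from 0.072 to 1.40, did not pass (adjusted p = 0.104). In Fk cultures it read 11.55, 11.43 and 10.34 at 12 h and 12.46, 12.60 and 11.85 at 48 h, and it rose by +1.20 with an interval from 0.54 to 1.86 (adjusted p = 0.0186). Fk_12h replicate 3 was low, and without it the rise was +0.82 and still passed, while the change in control cultures passed as well (adjusted p = 0.0167). The 3 bright probe sets gave +0.64 to +0.74 in control and +1.20 to +1.50 in Fk cultures.

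MDM2 rose in Fk cultures from 8.87 ± 0.54 to 9.76 ± 0.12 (SD, n = 3), by +0.89 with an interval from 0.37 to 1.41 (adjusted p = 0.0226). In control cultures the change of +0.49, with an interval from -0.033 to 1.0048, did not pass (adjusted p = 0.161), although the arrays did not overlap. Without Fk_12h replicate 3 the rise in Fk cultures was +0.58, which still passed, and the change in control cultures passed too (adjusted p = 0.0236). Of the 10 probe sets of MDM2, 3 reached the level of 4. The next brightest gave +0.91 in Fk cultures, and the third stayed between 5.18 and 5.44 on all 12 arrays with a difference of -0.043 in Fk cultures. The MDM2 call in Fk cultures also ended with no filter (adjusted p = 0.0521) and with the mean of all its probe sets (+0.22). The calls of MDM2 and TNFRSF10B in Fk cultures ended without Fk_48h replicate 1 or 2 (adjusted p from 0.0662 to 0.0744) and in a fit to the Fk arrays alone (adjusted p = 0.102 for both), in which only GADD45A passed.

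The remaining 4 members did not pass in either time comparison. RRM2B stood at 8.01 ± 0.16 and 8.43 ± 0.13 (SD, n = 3) in control cultures at 12 h and 48 h, a change of +0.43 without overlap of the arrays (adjusted p = 0.205). In Fk cultures its change was +0.48, and it passed at +0.72 without Fk_48h replicate 3. TP53INP1 had a difference of -0.35 in control cultures, where the arrays did not overlap, with an interval from -1.86 to 1.15 that again carries the spread of Fk_12h replicate 3. In a fit to the control arrays alone this change passed (adjusted p = 0.0469). SESN1 had -0.23 in control and +0.069 in Fk cultures, and XPC +0.16 and +0.044, all with intervals across 0. With array weights XPC in Fk cultures passed at +0.37 (adjusted p = 0.0489), where 5812 of 10784 genes passed. Of the 3 genes with a p53-like stretch, then, MDM2 had positive values in both, FAS negative values in both and SESN1 values of either sign. Only MDM2 in Fk cultures and FAS in control cultures passed.

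**Figure D2:**
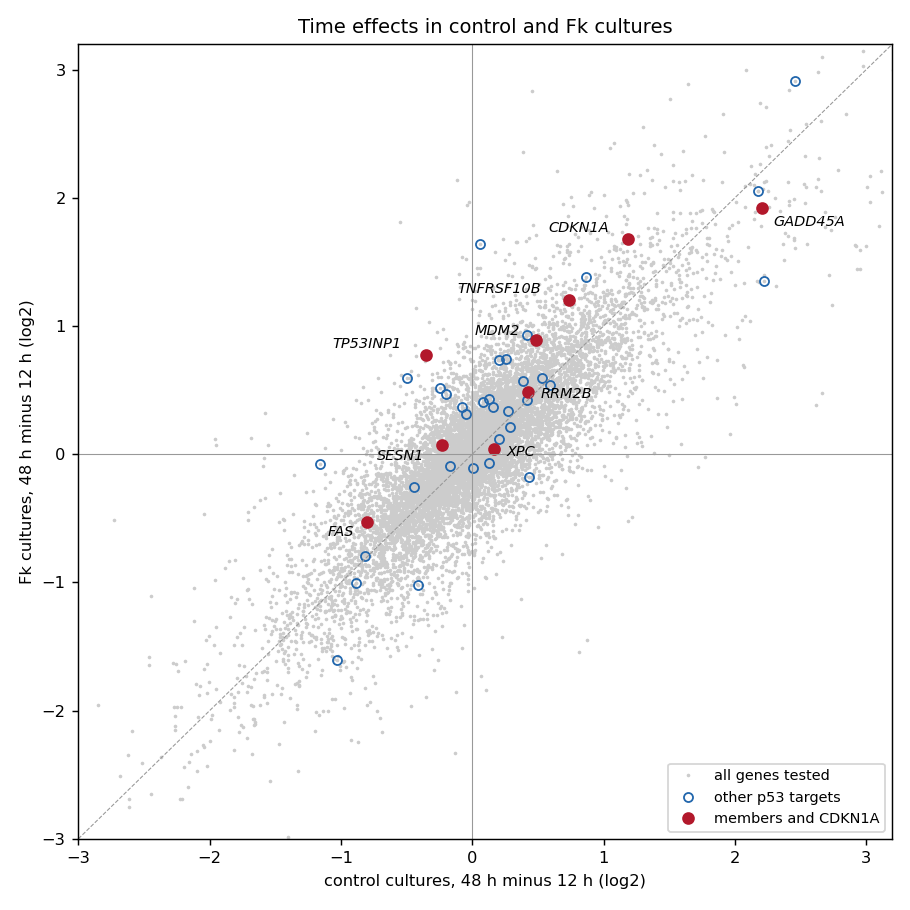
Log2 difference between 48 h and 12 h in control cultures (horizontal axis) and in Fk cultures (vertical axis), both from limma; grey dots are all genes tested within the axis range, open circles 33 other p53 targets, and filled circles the 8 members and CDKN1A, with the dashed line marking equal values. GADD45A lies at +2.21 and +1.92, CDKN1A at +1.18 and +1.68, and FAS below 0 on both axes at -0.80 and -0.53.

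CDKN1A rose in both cultures, by +1.18 with an interval from 0.58 to 1.78 in control (adjusted p = 0.0139) and by +1.68 with an interval from 1.08 to 2.28 in Fk cultures (adjusted p = 0.00302). All 48 h arrays, from 11.34 to 12.33, lay above all 12 h arrays, from 9.95 to 10.92. The call in control cultures ended without control_12h replicate 3 (+0.98, adjusted p = 0.0587) or control_48h replicate 1 (+1.01, adjusted p = 0.0582).

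**Figure D3:**
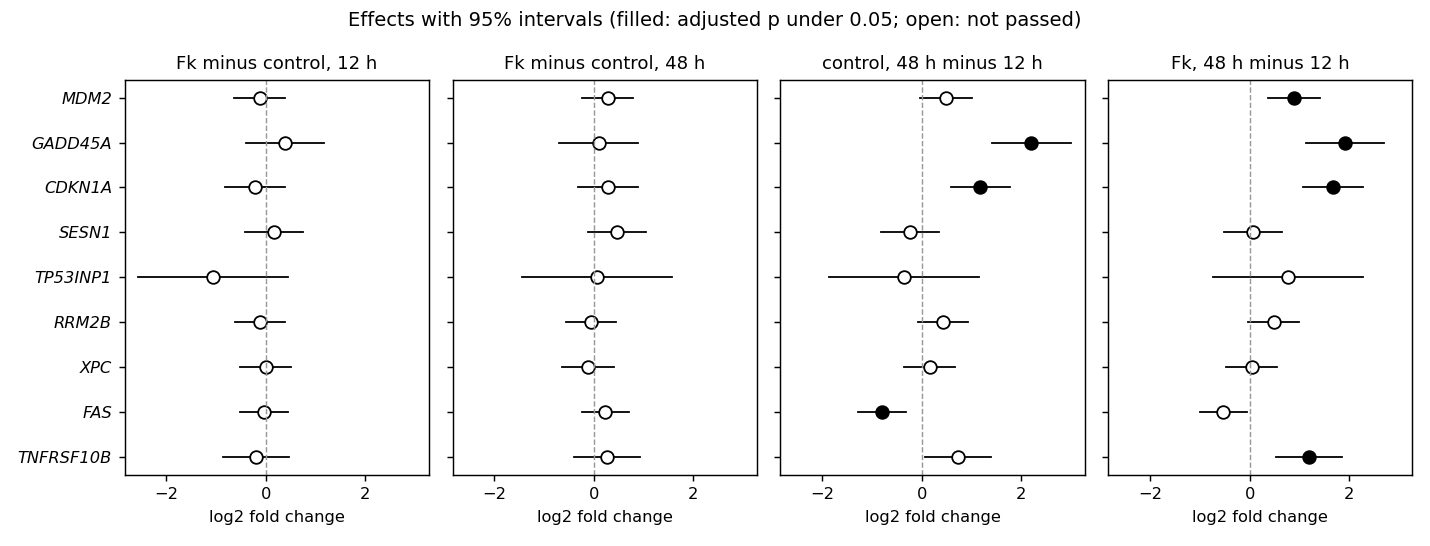
Log2 fold change (horizontal axis) with its 95% interval from limma for the 8 members and CDKN1A in 4 comparisons, 3 arrays against 3 in each; filled points passed an adjusted p of 0.05 and open points did not. In both Fk comparisons every point is open, with effects from -1.06 to +0.47, while GADD45A and CDKN1A passed in both time comparisons.

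The members differed in how they varied among the arrays. GADD45A had an SD of 1.16 log2 units over the 12 arrays, TP53INP1 0.90 and TNFRSF10B 0.62, whereas XPC had 0.27. The genes with the most similar profile were found by the root mean square difference over the 12 arrays after centring each gene on its own mean. For GADD45A these were BHLHE41, a circadian repressor, at 0.31 log2 units and SESN2, a relative of SESN1 and a target of both p53 and ATF4, at 0.32. For TP53INP1 they were ZNF678, a zinc finger gene, at 0.21 and LARP4, an RNA-binding protein gene, at 0.27. Both shared its low reading on Fk_12h replicate 3, with 5.50 for ZNF678 against 7.84 to 8.42 on the other arrays and 7.14 for LARP4 against 9.32 to 10.00. For TNFRSF10B they were MNT, an antagonist of MYC, at 0.12 and the kinase gene AAK1 at 0.15, which were also lowest on that array. All these genes were picked for their likeness over the same 12 arrays, so the shared low readings follow from the choice.

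**Figure D4:**
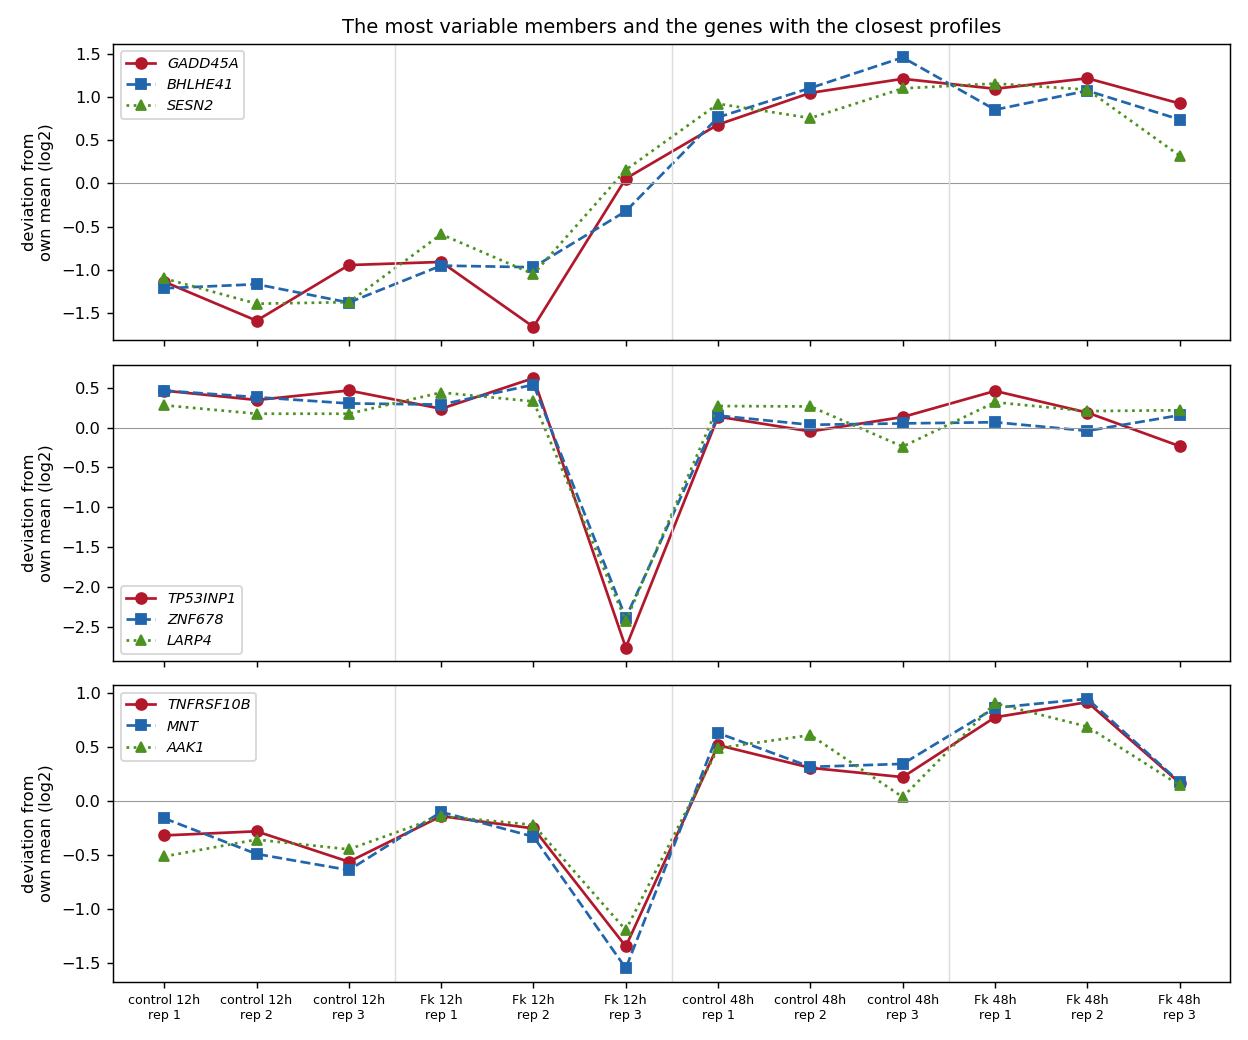
Deviation of a gene from its own mean over the 12 arrays (log2, vertical axis), in the order control 12 h, Fk 12 h, control 48 h and Fk 48 h, for the 3 most variable members and the genes closest to each; lines join the arrays only to guide the eye. GADD45A and SESN2 step up from 12 h to 48 h, and TP53INP1, ZNF678 and LARP4 share one low array, Fk_12h replicate 3.

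Other p53 targets, a list of 38 genes of which 33 were tested, showed 0 passing genes for Fk at either time. At 48 h 28 of the 33 had a positive Fk effect, with a median of +0.17, against 5807 of 10784 genes and a median of +0.018. These comparisons share the control arrays with those of the members. Their values at 48 h included PLK3, a stress-responsive kinase, at +1.08 ± 0.36 (SE, adjusted p = 0.751) and KITLG, which encodes the ligand of the receptor KIT, at +0.73 ± 0.25. The NADPH-dependent oxidoreductase gene TP53I3 had -0.37 ± 0.15. At 12 h the median was +0.043, and the genes named by the smallest p were AEN, an apoptosis-enhancing nuclease (-0.35 ± 0.12), SESN2 (+0.80 ± 0.30) and TNFRSF10A, the other TRAIL receptor that signals death (-0.83 ± 0.35). Without Fk_12h replicate 3 the last 2 were +0.47 and -0.42. With array weights AEN at 12 h (-0.36, adjusted p = 0.0473) and KITLG at 48 h (+0.76, 0.0319) passed, where 207 and 598 of 10784 genes passed.

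From 12 h to 48 h in control cultures 4 of these 33 targets rose and 3 fell, and 26 did not pass, where 10.6% and 10.9% of all genes rose and fell. The median was +0.13. GDF15, a stress-induced cytokine, rose by +2.46 ± 0.35 (SE, adjusted p = 0.00196), SESN2 by +2.22 ± 0.30, CYFIP2 by +2.17 ± 0.30 and the cyclin gene CCNG1 by +0.59 ± 0.11. TP53I3 fell by 1.03 on the log2 scale, KITLG by 1.16 and IER5 by 0.82. The KITLG and IER5 calls ended without control_12h replicate 3 (-1.06 and -0.78), and that of IER5 also without control_48h replicate 2 (-0.72). In Fk cultures 8 rose and 3 fell, with a median of +0.41, where 11.5% and 11.7% of all genes rose and fell. This median also includes Fk_12h replicate 3 and was not computed without it. GDF15 (+2.92), CYFIP2 (+2.06) and SESN2 (+1.35) rose there too, SESN2 not in a fit to the Fk arrays alone (adjusted p = 0.0776).

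Among 25 tested regulators of p53 and kinases of the damage response, 0 passed for Fk at 12 h or at 48 h, with medians of -0.0047 and -0.012. UBE3A, the ligase that E6 recruits to p53, had -0.52 ± 0.15 at 12 h (SE, adjusted p = 0.654). USP7, which removes ubiquitin from MDM2 and p53, had -0.31 ± 0.12, and the checkpoint kinase gene CHEK2 +0.61 ± 0.24. At 48 h DAXX, a chaperone of histones and partner of MDM2, had -0.48 ± 0.19, USP7 +0.26 ± 0.12 and the acetyltransferase gene EP300 -0.30 ± 0.15. With array weights UBE3A at 12 h (-0.43, adjusted p = 0.0498) and DAXX (-0.87, 0.0218), USP7 (+0.30, 0.0499) and EP300 (-0.35, 0.0392) at 48 h passed. Of 10784 genes, 207 passed at 12 h and 598 at 48 h with these weights. Over time in control cultures 5 of the 25 rose and 6 fell, where 10.6% and 10.9% of all genes did. MDM4, the relative of MDM2 that also inhibits p53, rose by +1.12 ± 0.15 (adjusted p = 0.00154) and by +1.39 in Fk cultures. The acetyltransferase gene CREBBP rose by +0.94 ± 0.13 in control cultures, and H2AX, the histone variant phosphorylated at DNA breaks, fell by 1.39 on the log2 scale.

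The relatives of the members moved both ways over time, with 3 of 13 tested rising and 4 falling in control cultures. Of all genes 10.6% rose and 10.9% fell there. BTG1, the antiproliferative relative of BTG2, rose by +1.41 ± 0.17 (SE, adjusted p = 0.000824), as did MDM4 and SESN2. RRM1 and RRM2, the subunits of the replicative ribonucleotide reductase, fell by 1.06 and 2.09 on the log2 scale, while RRM2B stood at +0.43 and did not pass. TNFRSF10D, a decoy receptor for TRAIL, fell by 0.79, while TNFRSF10B stood at +0.74, and BTG3 fell by 0.56, a call that ended with the mean of its probe sets (-0.18). The RRM1 call ended without any of control_12h replicates 1 (-1.08), 2 (-0.99) and 3 (-1.13) or control_48h replicates 1 (-0.87) and 2 (-1.05). That of TNFRSF10D ended without any of these 5 arrays (-0.88 to -0.62) or Fk_48h replicate 2. In Fk cultures RRM1 and RRM2 fell by 1.15 and 2.05, BTG1 rose by +1.16, and TNFRSF10D at -0.46 did not pass. In a fit to the Fk arrays alone neither RRM1 (adjusted p = 0.0871) nor RRM2 (0.0589) passed, and the RRM1 call there also ended with no filter or without Fk_12h replicate 2 (-1.06) or Fk_48h replicate 1 (-0.80) or 2 (-1.17). For Fk, 0 of the 13 relatives passed at 12 h or 48 h, with BTG1 at +0.42 at 12 h and TP53INP2, the relative of TP53INP1, at -0.59 at 48 h.

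In the death receptor pathway 1 of 12 tested genes rose and 1 fell over time in control cultures, where 10.6% and 10.9% of all genes did. FAF1, which binds FAS, rose by +0.67 ± 0.13 (SE, adjusted p = 0.00741), TNFRSF10D fell, and BID, which links death receptors to mitochondria, stood at -0.44 ± 0.14 (adjusted p = 0.0518). BID passed in 10 of 25 alternative settings, with an adjusted p down to 0.00173, among them without control_48h replicate 3 (-0.57). In nucleotide excision repair 1 of 16 rose and 3 fell, against the same shares of 10.6% and 10.9% of all genes. GTF2H1, a subunit of the repair helicase complex TFIIH, rose by +1.14 ± 0.22, and RPA1 and RPA2, which coat single-stranded DNA, fell by 0.81 and 0.77 on the log2 scale. For Fk, 0 genes of either pathway passed at 12 h or 48 h. At 48 h CASP8, the initiator caspase of the death receptors, had -0.29, FAF1 +0.26 and TNFRSF10D +0.33. Of the repair genes ERCC8, which acts in transcribed genes, had +0.26, the centrin gene CETN2 -0.11 and DDB2, a damage sensor that is itself a p53 target, +0.26.

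Other gene groups moved with time beside the members. Of all genes 10.6% rose and 10.9% fell in control cultures, and 11.5% and 11.7% in Fk cultures. Of 12 genes of the integrated stress response, 10 rose and 1 fell in control cultures, with a median of +2.06, and 8 rose and 1 fell in Fk cultures, with a median of +1.47. DDIT3, which encodes CHOP, rose by +4.86 ± 0.63 (SE) and the pseudokinase gene TRIB3 by +1.90 ± 0.18 in control cultures. At 12 h with Fk, CHAC1, a glutathione-degrading enzyme gene, had +2.11 ± 0.77, or +1.21 without Fk_12h replicate 3, and the asparagine synthetase gene ASNS +1.20 ± 0.45, without passing (adjusted p = 0.673 and 0.689). Of 26 proliferation genes, 0 rose and 22 fell in control cultures, with a median of -1.21, among them the cyclin gene CCNE2 by 2.67, the replication factor gene CDC45 by 1.37 and the survivin gene BIRC5 by 1.69. The mean of these 26 genes was 11.04 to 11.18 on the 12 h arrays. At 48 h it was lowest on replicates 1, at 9.21 with Fk and 9.41 in control, and highest on replicates 3, at 10.25 and 10.32. The part of either group in the members' changes over time was not tested.

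**Figure D5:**
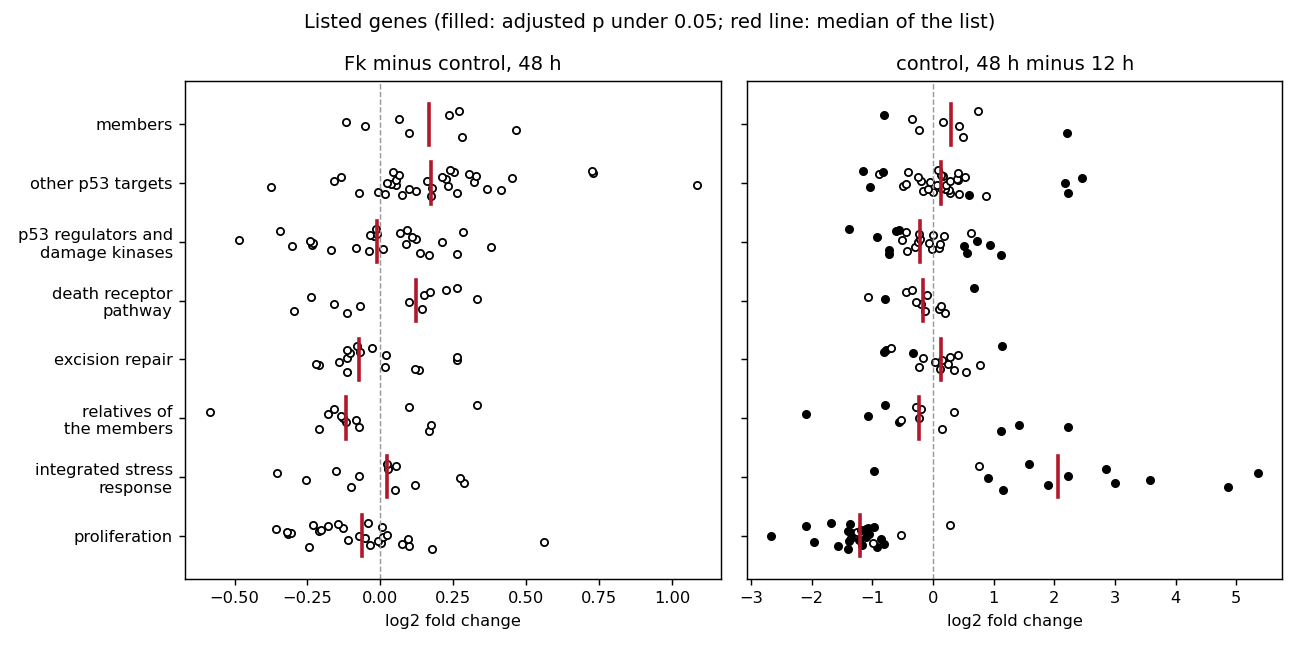
Log2 fold change (horizontal axis) of each tested gene of 8 lists for Fk minus control at 48 h and for control cultures at 48 h minus 12 h, from limma; filled points passed an adjusted p of 0.05, open points did not, and the red line is the median of a list. No point is filled for Fk, while over time the integrated stress response genes have a median of +2.06 and the proliferation genes one of -1.21, with the members at +0.29.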

How the data were processed

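RNA of 12 cultures was measured on Affymetrix arrays with biotin cRNA. GCRMA produced the deposited log2 values (1 per probe set), according to the submitters' processing notes, and the log2 scale was read from their range. Whether these arrays were normalized with others is not given in the sources used here. Of 54675 probe sets, 41097 carried 1 gene symbol in the platform annotation, 1801 several and 11777 none. For each gene the brightest probe set was used, and 10784 of 19775 genes were tested. limma 3.58.1 in R 4.3.3 estimated 4 group means from the 12 arrays with eBayes moderation (residual df 8, prior df 2.44), and tests were two-sided and adjusted over all genes tested. The number of arrays limits the precision, and p-values measure the spread between these cultures. Promoter windows and gene positions are RefSeq's (GRCh38.p14).

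The members and lists were chosen with earlier results of these data known. Named genes were the members, CDKN1A, the 3 genes with the smallest p of each list for Fk at each time and for time in control cultures, and the 2 closest profiles of the 3 most variable members. CCNG1, TP53I3, KITLG and IER5 over time, RRM1, RRM2, BTG3 and changes of listed genes in Fk cultures were added after their values were seen. Marker genes of fibroblasts, endothelium and leukocytes were read too: 3 of 7, 1 of 5 and 0 of 5 reached the level of 4. In all, 25 other settings were tried, 12 of which left out an array. They changed the filter, the probe set, the normalization, the moderation, the threshold or the arrays in the fit, or added array weights (estimated gene by gene, since the REML estimate did not converge) or a replicate block. Plots used matplotlib 3.10.9 (Python 3.11.15, pandas 2.3.3).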

Additional observations from a re-analysis of the deposited data

Results flagged for a closer look

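No member was singled out. Of the other named genes, 3 had all 3 Fk arrays on one side of the control mean at 12 h and on the other side at 48 h. The difference between the Fk effects at 48 h and 12 h was -0.57 for TP53I3 (unadjusted p = 0.0225), +0.57 for USP7 (unadjusted p = 0.00632) and -2.36 for CHAC1 (unadjusted p = 0.0538). Without Fk_12h replicate 3 the value for CHAC1 was -1.46. None passed the test of that difference by limma (adjusted p = 0.996 for each). Groups of 3 arrays are too small for the test of a single outlying sample, so Fk_12h replicate 3 could not be tested in this way.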

How the results depend on the processing

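The count of members that passed stayed at 0 for Fk at 12 h, Fk at 48 h, their difference and their mean under every setting run. In control cultures over time it was 2 as reported and 1 with no filter on low values or without probe sets ending in _x_at or _s_at, 4 with array weights and 5 in a fit to the groups compared, and from 1 to 4 with single arrays left out. Without probe sets of these endings MDM2, SESN1 and FAS had none at the level of 4, so they were not tested in that setting. In Fk cultures it was 3 as reported, 6 with array weights, 1 in a fit to the groups compared, and from 1 to 4 with single arrays left out. MDM2 also dropped out of the Fk count with no filter (adjusted p = 0.0521) and with the mean of all probe sets (adjusted p = 0.0724). It was not tested there without probe sets ending in _x_at or _s_at. A replicate block within time gave 0 and 0 members for Fk at 12 h and 48 h and 2 and 3 over time in control and Fk cultures. The reported fit did not pair the cultures by number. Same-numbered deviations correlated at 0.041, 0.265 and 0.163 at 12 h and 0.7975, -0.025 and 0.6065 at 48 h. At 48 h Fk replicate 1 and control replicate 3 correlated at -0.7026, and Fk replicate 3 and control replicate 1 at -0.6992. Deviations from a group mean cancel out within the group, so these negative values are tied to the positive ones and add little. By the same-numbered values, replicates 1 and 3 shared deviations across the groups at 48 h, which only the fit with the replicate block takes into account.

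Array weights turned the Fk effect at 12 h to +0.16 for MDM2, +0.048 for RRM2B, -0.078 for XPC, +0.0026 for FAS and +0.15 for TNFRSF10B, that at 48 h to +0.14 for RRM2B and +0.20 for XPC, and the change over time in Fk cultures to -0.015 for SESN1 and -0.14 for TP53INP1. A second quantile normalization gave -0.026 for SESN1 and -0.024 for XPC over time in Fk cultures and -0.011 for XPC with Fk at 12 h, where centring on the median gave -0.021. None of these values passed as reported, and the cause was not tested.

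With single arrays left out, the Fk effect at 12 h ran from -0.32 to +0.18 for MDM2, -0.061 to +0.80 for GADD45A, -0.28 to +0.070 for RRM2B, -0.097 to +0.095 for XPC, -1.69 to +0.0032 for TP53INP1, -0.11 to +0.023 for FAS and -0.41 to +0.19 for TNFRSF10B. At 48 h it ran from -0.050 to +0.21 for GADD45A, -0.22 to +0.19 for RRM2B, -0.29 to +0.20 for XPC and -0.097 to +0.25 for TP53INP1. Over time in Fk cultures it ran from -0.24 to +0.28 for SESN1, -0.13 to +0.36 for XPC and -0.29 to +1.40 for TP53INP1. Over all genes, array weights called 207 genes for Fk at 12 h and 598 at 48 h, where 0 were called without them, and 5136 and 5812 over time in control and Fk cultures, against 2314 and 2500. They called 966 for the mean of the Fk effects, against 1. A fit to the 2 groups compared called 3125 over time in control and 831 in Fk cultures. Leaving out an array gave from 1060 (without control_12h replicate 3) to 3445 calls (without Fk_12h replicate 3) over time in control cultures and from 1294 (without Fk_48h replicate 1) to 2790 (without Fk_12h replicate 3) in Fk cultures. The weights rest on the gene-by-gene estimate, as the REML estimate did not converge. They ran from 0.114 on Fk_12h replicate 3 to 5.34 on Fk_48h replicate 2, against 0.45 and 0.368 on Fk_48h replicates 1 and 3. The weighted mean of the Fk cultures at 48 h thus rested mostly on replicate 2.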
